A study of Mus musculus with 28 samples.

Results

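The 10 genes described here, Dcx, Tubb3, Map2, Rbfox3, Stmn2, Elavl3, Elavl4, Snap25, Syt1 and Gap43, are pan-neuronal genes, that is, genes that differentiated neurons of most kinds share. They were chosen by name as 10 of the 28244 genes in a table of RNA-seq counts, and every row was found. The study asked whether neural stem cells can be derived from tissues outside the central nervous system, and it compared these peripheral neural stem cells (pNSCs) with neural stem cells (NSCs) of the brain, with the cells of the source tissue and with neural crest stem cells (NCSCs). The table holds 28 samples of mouse cells in 11 groups, all labelled as strain C57BL/6. The study's methods also name other backgrounds for its wild-type mice.

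5 groups have 2 samples each: Brain-NSC, Lung-pNSC, Tail-pNSC, Lung and Tail. By the study's methods these belong to an experiment with a Nes-GFP transgene, a reporter driven by Nestin regulatory sequence, in which the lung cells came from adult mice (4 to 6 weeks) and the tail cells from postnatal mice (day 1 to 5). The other 6 groups have 3 samples each. Sox2-GFP brain NSCs and Sox2-GFP lung pNSCs carry a GFP knock-in at the Sox2 gene, and the lung cells came from postnatal mice. Wnt1Cre-mTmG brain NSCs, Wnt1Cre-mTmG Tail pNSCs and Wnt1Cre-mTmG DRG pNSCs carry a Wnt1-driven Cre with a 2-colour membrane reporter, which turns from Tomato to GFP in neural crest descendants, and the pNSCs of this experiment were the Tomato-positive, GFP-negative lines, from postnatal tail and postnatal dorsal root ganglion (DRG). DRG NCSCs were grown from the ganglia of adult wild-type mice, and their GEO label gives the cell type as NSC. For brain NSCs the study's methods name adult or postnatal mice, without an age for each group. Its reporting summary states that in most cases the control brain NSCs and the pNSCs shared their mice. Whether age differs along with tissue in each comparison of pNSCs with brain NSCs is thus not known. The 8 groups of brain NSCs and pNSCs (the neural stem lines below) were grown with EGF and bFGF at 10 ng/mL. A pNSC line started from a cluster picked after 3 weeks of culture, which the study calls mostly clonal, so the samples of a group may stand for 1 line.

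Neurons build a cytoskeleton, an RNA-binding machinery and a release machinery that dividing precursors use little or not at all. Dcx, Tubb3, Map2 and Stmn2 encode proteins that bind or form microtubules, Gap43 a protein of the growth cone, Rbfox3, Elavl3 and Elavl4 RNA-binding proteins, and Snap25 and Syt1 parts of the vesicle fusion machinery. Some of them appear early, in neuroblasts (Dcx) or in neurons that are still extending axons (Stmn2, Gap43), and others are used to mark mature neurons, above all Rbfox3, whose protein is the NeuN antigen. Map2 and Gap43 are also known to be transcribed in dividing neural precursors or glia.

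Stretches before the start sites of Map2, Elavl3, Elavl4 and Dcx are shown because these genes gave the most even level among the neural stem lines (Map2), opposite changes of a pair of relatives in the same cells (Elavl3 and Elavl4) and a level that depended strongly on the line (Dcx). The sequences are from RefSeq on GRCm38.p6, 5′ to 3′ on the gene's strand, and end before the start of both the RefSeq and the GENCODE gene. Capitals mark matches to the TATA box (letters TATAAA), an E-box (letters CAGCTG) and both parts of the RE1 element bound by Rest (letters CAGCACC on the left and the letters GGACAG on the right), searched on both strands together with the CRE (letters TGACGTCA), which is in none of the 4. The Map2 stretch is chr1:66175079-66175272 (plus strand), the Elavl3 stretch chr9:22052024-22052273, the Elavl4 stretch chr4:110351912-110352161 and the Dcx stretch chrX:143933312-143933469 (all minus strand).
Map2: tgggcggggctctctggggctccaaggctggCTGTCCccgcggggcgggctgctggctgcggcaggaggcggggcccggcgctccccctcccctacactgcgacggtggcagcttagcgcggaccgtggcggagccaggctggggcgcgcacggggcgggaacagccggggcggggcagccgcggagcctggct
Elavl3: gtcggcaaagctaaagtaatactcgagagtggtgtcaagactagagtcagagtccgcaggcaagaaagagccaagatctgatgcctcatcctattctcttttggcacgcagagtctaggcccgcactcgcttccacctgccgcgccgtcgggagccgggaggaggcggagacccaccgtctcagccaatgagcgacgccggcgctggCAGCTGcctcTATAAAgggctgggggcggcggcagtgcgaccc
Elavl4: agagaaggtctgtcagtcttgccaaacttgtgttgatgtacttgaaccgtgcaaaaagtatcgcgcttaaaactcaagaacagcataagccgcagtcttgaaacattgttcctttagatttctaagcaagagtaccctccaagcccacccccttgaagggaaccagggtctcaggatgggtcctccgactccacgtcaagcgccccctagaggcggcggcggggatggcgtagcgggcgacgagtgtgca
Dcx: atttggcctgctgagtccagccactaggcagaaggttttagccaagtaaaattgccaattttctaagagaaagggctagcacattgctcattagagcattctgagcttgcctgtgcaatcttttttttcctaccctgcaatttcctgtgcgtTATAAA

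The stretches differ in base content: G and C made up 79.4% of the Map2 stretch with 22 CpG, 61.6% of the Elavl3 stretch with 20, 53.6% of the Elavl4 stretch with 14 and 42.4% of the Dcx stretch with 1. Start-site windows of 300 bases were found for 7 of the 10 genes (12 windows). The letters TATAAA are in 13.6% of all 32851 windows, CAGCTG in 16.3%, GGACAG in 22.2%, CAGCACC in 7.14% and TGACGTCA in 1.79%. Windows at other annotated starts of Elavl4 do hold CAGCTG. The matches are a description of these letters and no evidence of binding.

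Levels are given as cpm, the count as a share of the library's total after TMM scaling (the trimmed mean of M values of edgeR), and levels of different genes are compared only per kilobase of annotated exon. A count of 3 in a library was taken as the smallest amount that can be told from 0, which stood for at most 0.295 cpm. Differences are log2 fold changes with their standard error (SE) from edgeR, with p-values adjusted over all genes of the comparison. A gene is called where this adjusted p is under 0.05 and the levels differ at least 2-fold. The libraries held 9808246 to 22637031 counts, with the Wnt1Cre-mTmG brain NSCs and DRG pNSCs at 9808246 to 11431445. The replicates of a group lay close together, at 1.09 to 2.82 times the squared difference that counting alone gives, except DRG NCSCs replicate 3, at 16.8 and 21 times against its partners. The study's figure legends call the samples biological replicates, but the labels do not say that they are separate cultures. The p-values measure the spread between these samples, which may be technical.

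Neural stem cell markers set the 8 neural stem lines apart from Lung and Tail, but their sum did not set them apart from the DRG NCSCs. The sum of 8 such markers (among them Sox2, Nes, Olig2 and Fabp7) was 7970 to 11000 cpm in the 8 neural stem lines, with every marker at 1 cpm or more, against 1430 to 1470 in Lung and 1930 to 1960 in Tail. In the DRG NCSCs the sum was 8160 to 8820 cpm, within the range of the neural stem lines. Vim and Nes were the main part of it, while Pax6 was at 0.308 cpm and Olig2 at 14.9 cpm. The DRG NCSCs, whose GEO label is NSC, also held all 8 Schwann cell and neural crest markers at 1 cpm or more, with a sum of 5140 to 5420 cpm. Tail held all 8 at 1 cpm or more as well, with a sum of 914 to 935 cpm.

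**Figure D1:**
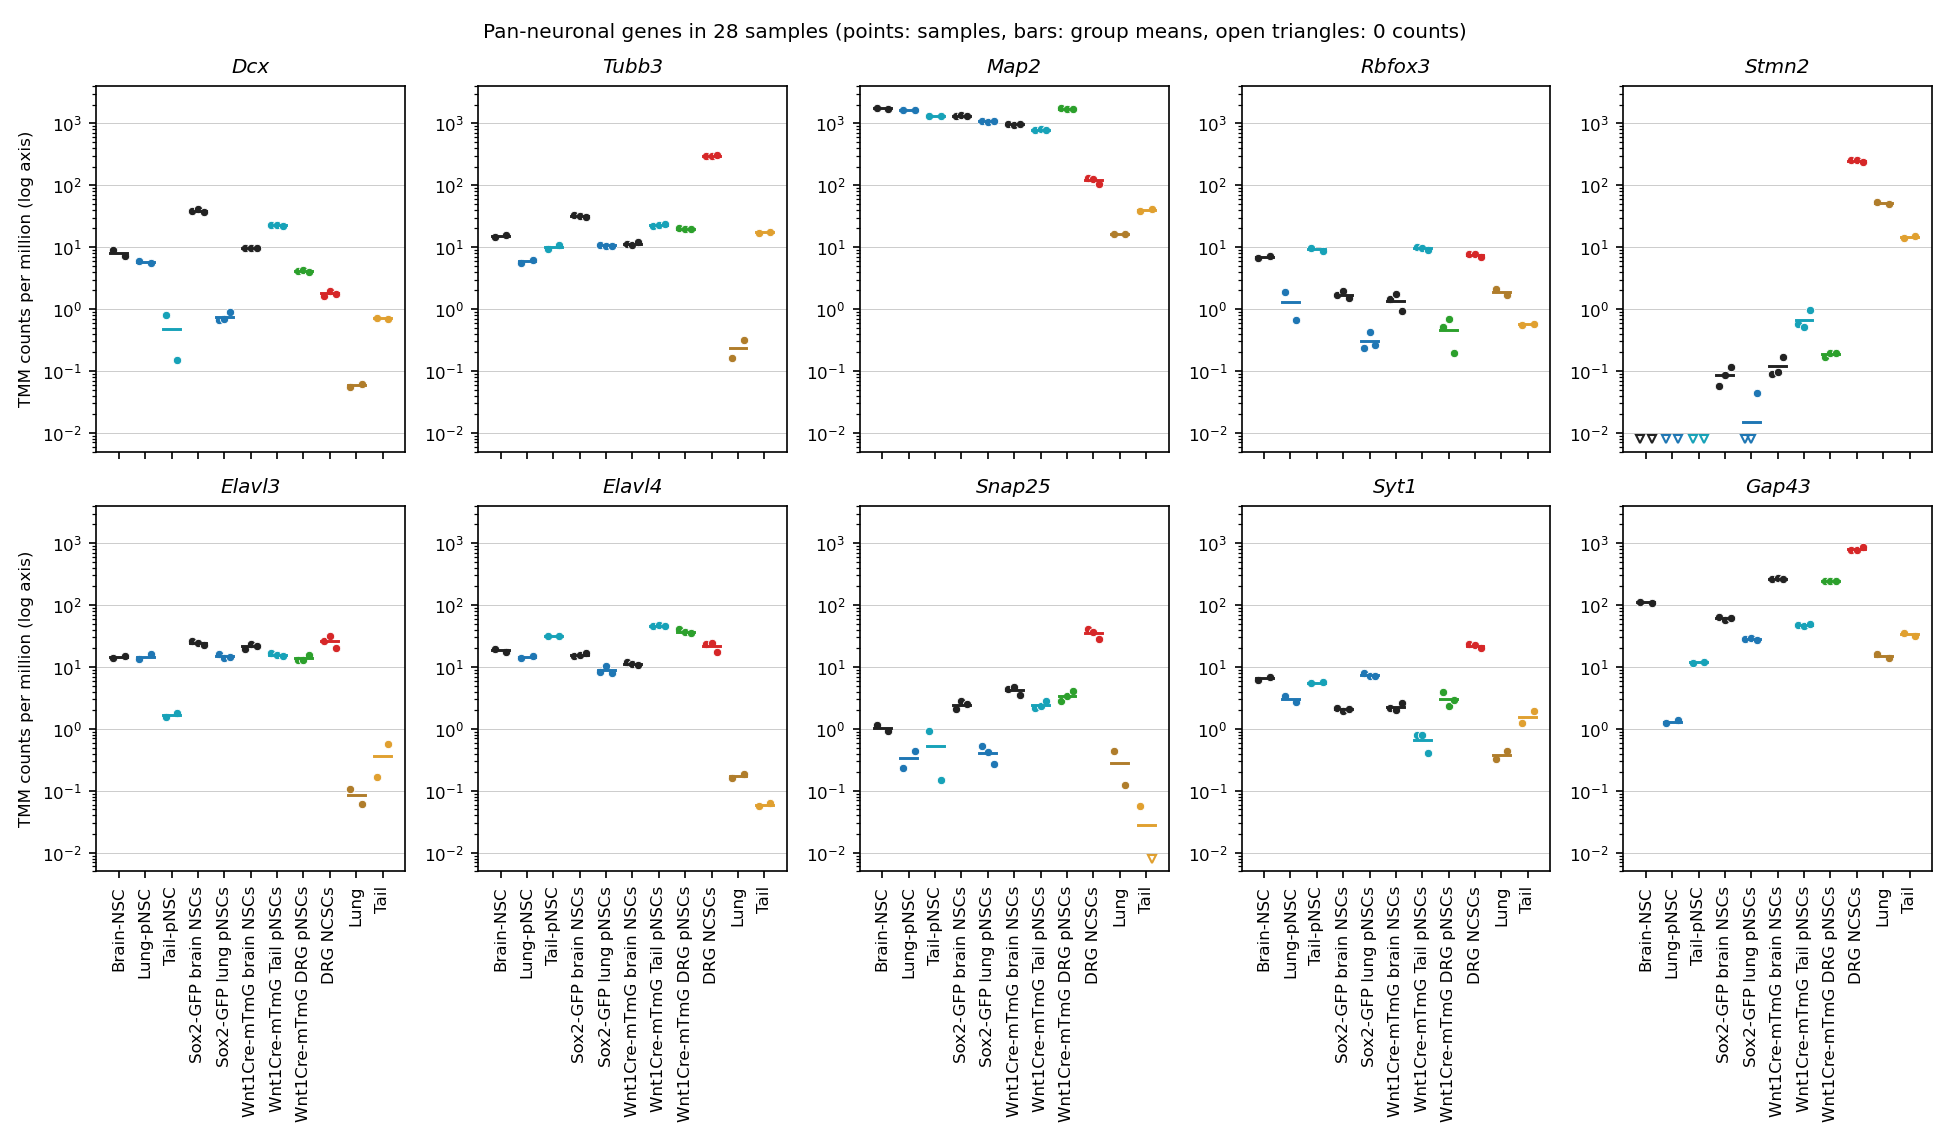
TMM-scaled cpm (log axis) of the 10 pan-neuronal genes in each of the 28 samples, by group; points are samples, bars are group means and open triangles are samples with 0 counts. Map2 sits between 785 and 1778 cpm in every neural stem line, Stmn2 at or below 0.956 cpm in the same lines, and Gap43 and Dcx spread widely among them.

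Map2 (chr1:66175273-66442583, plus strand), which binds and stabilises microtubules and is known from dendrites, was high in all 8 neural stem lines. Its level was 1778 and 1694 cpm in Brain-NSC, 1631 and 1636 in Lung-pNSC, and 1306 and 1320 in Tail-pNSC. It was 1306, 1343 and 1326 cpm in Sox2-GFP brain NSCs and 1073, 1067 and 1080 in Sox2-GFP lung pNSCs. In the Wnt1Cre-mTmG experiment it was 962, 948 and 958 cpm in the brain NSCs, 787, 795 and 785 in the Tail pNSCs, and 1760, 1720 and 1685 in the DRG pNSCs. No neural stem line came near the other cells, since DRG NCSCs held 129, 126 and 106 cpm, Tail 38.2 and 41.3 cpm and Lung 16.5 and 16.1 cpm. Per kilobase of its 16.4 kb of annotated exon, Map2 stood at 48.0 to 106 cpm in the neural stem lines and was the highest member in 6 of the 8. In Wnt1Cre-mTmG brain NSCs and DRG pNSCs Gap43 was higher, at 175 and 159 cpm per kilobase. The annotated gene Gm10558, not a row of the table, overlaps Map2 exons on the opposite strand.

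Against the brain NSCs of their experiment, no pNSC group differed 2-fold in Map2. The log2 fold change was -0.40 (SE 0.0286) in Tail-pNSC, -0.10 (SE 0.0285) in Lung-pNSC, -0.27 (SE 0.0495) in Wnt1Cre-mTmG Tail pNSCs, 0.85 (SE 0.0498) in Wnt1Cre-mTmG DRG pNSCs and -0.30 (SE 0.0167) in Sox2-GFP lung pNSCs. These differences were small but larger than the spread of the replicates, with edgeR adjusted p-values from 2.65e-73 to 0.00225. Against cells of the same tissue the gain was large, with a log2 fold change of 4.96 (SE 0.0389) in Tail-pNSC against Tail, 6.61 (SE 0.0439) in Lung-pNSC against Lung and 6.02 (SE 0.0355) in Sox2-GFP lung pNSCs against Lung. The last of these also differs in age and experiment, since Lung came from adult mice of the Nes-GFP experiment. The Wnt1Cre-mTmG pNSCs of tail and DRG also exceeded the DRG NCSCs, by 2.70 (SE 0.0537) and 3.82 (SE 0.056) on the log2 scale. The DRG NCSCs came from adult wild-type mice and these pNSCs from postnatal mice, so age and genotype cannot be told apart from cell type.

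Dcx (chrX:143855842-143933311, minus strand), which encodes the microtubule-associated protein of migrating neuroblasts, depended strongly on the line. It was 38.9, 40.55 and 36.7 cpm in Sox2-GFP brain NSCs, but 0.670, 0.697 and 0.888 cpm in the Sox2-GFP lung pNSCs. In Wnt1Cre-mTmG Tail pNSCs it was 22.99, 22.6 and 22.3 cpm, in the brain NSCs of that experiment 9.56, 9.67 and 9.72 cpm, and in the DRG pNSCs 4.07, 4.24 and 3.94 cpm. In the first experiment it was 8.98 and 7.21 cpm in Brain-NSC, 5.88 and 5.58 in Lung-pNSC, and 0.7997 and 0.152 in Tail-pNSC, the lower of which rests on 3 counts. The highest and lowest line means differed 81.4-fold, and the tail gave both a high and the lowest line. DRG NCSCs held 1.62, 1.985 and 1.75 cpm, Tail 0.730 and 0.702 cpm, and Lung 1 count in each library.

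Dcx fell against brain NSCs in Tail-pNSC (log2 fold change -4.12, SE 0.296, edgeR adjusted p = 7.26e-43), in Sox2-GFP lung pNSCs (-5.67, SE 0.117) and in Wnt1Cre-mTmG DRG pNSCs (-1.24, SE 0.114, adjusted p = 9.71e-08). It rose in Wnt1Cre-mTmG Tail pNSCs (1.23, SE 0.0789, adjusted p = 3.12e-10). In Lung-pNSC the difference was -0.50 (SE 0.176, adjusted p = 0.0127), under the 2-fold limit. Tail-pNSC did not differ from Tail in Dcx (-0.72, SE 0.514, adjusted p = 0.181), a comparison that either Tail-pNSC library decides: without replicate 1 it was -2.27 (adjusted p = 0.00641) and without replicate 2 it was 0.08 (adjusted p = 0.915).

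Tubb3 (chr8:123411424-123422015, plus strand), the neuronal class III beta-tubulin, was highest in the DRG NCSCs, at 294.5, 297.0 and 308.8 cpm. The neural stem lines held 5.60 to 32.4 cpm, with Sox2-GFP brain NSCs highest (32.4, 31.5 and 30.8 cpm) and Lung-pNSC lowest (5.60 and 6.20 cpm). Tail cells, at 17.1 and 17.7 cpm, lay within the range of the stem lines, and Lung held 0.163 and 0.312 cpm. Tail-pNSC, at 9.20 and 10.8 cpm, did not reach Tail (log2 fold change -0.87, SE 0.123). Against brain NSCs Tubb3 fell in Lung-pNSC (-1.39, SE 0.135, adjusted p = 1.15e-23) and Sox2-GFP lung pNSCs (-1.56, SE 0.0692, adjusted p = 1.7e-111). Its rise in Wnt1Cre-mTmG Tail pNSCs lay at the 2-fold limit (1.01, SE 0.0648, adjusted p = 3.22e-10) and fell below it, to between 0.982 and 0.993, without Tail pNSC replicate 3 or brain NSC replicate 1 or 2, and to 0.986 with upper-quartile scaling. The annotated gene Gm20388 covers Tubb3 on the same strand and is not a row of the table.

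Stmn2 (chr3:8509360-8561606, plus strand), a stathmin that destabilises microtubules in growing axons, ran the other way from Map2. No count fell on it in any of the 6 libraries of Brain-NSC, Lung-pNSC and Tail-pNSC, and 0 to 2 counts did in each library of the Sox2-GFP lines, Wnt1Cre-mTmG brain NSCs and DRG pNSCs. Wnt1Cre-mTmG Tail pNSCs were the only line above the floor, with 13, 11 and 19 counts (0.568, 0.506 and 0.956 cpm). DRG NCSCs held 253, 251 and 241 cpm, Lung 52.9 and 50.4 cpm, and Tail 14.2 and 14.99 cpm. The gene was thus far higher in the source tissues than in any neural stem line, at least 333-fold in Lung against Lung-pNSC and at least 90.1-fold in Tail against Tail-pNSC, bounds set by 3 counts in each stem cell library. It passed the filter on low counts only through Lung, Tail or the DRG NCSCs. Against Wnt1Cre-mTmG brain NSCs, with 1 or 2 counts a library, Stmn2 was 5.56 times as high in the Tail pNSCs (95% counting interval 2.02 to 21.3). This interval covers counting error only.

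Gap43 (chr16:42248442-42340651, minus strand), which encodes a membrane protein of growth cones, spread over a 203-fold range among the line means, the widest of the members with counts in every line. In brain NSCs it was 262, 272 and 267 cpm in the Wnt1Cre-mTmG experiment, 114 and 107 cpm in Brain-NSC, and 63.3, 57.5 and 61.2 cpm in the Sox2-GFP experiment. Wnt1Cre-mTmG DRG pNSCs were close to their brain NSCs at 241, 242 and 244 cpm, and the Tail pNSCs held 47.1, 46.5 and 48.6 cpm. Sox2-GFP lung pNSCs held 27.99, 29.55 and 27.6 cpm, Tail-pNSC 11.7 and 12.2 cpm, and Lung-pNSC 1.23 and 1.396 cpm. Each tail-derived and lung-derived line thus lay below every brain NSC sample. DRG NCSCs were highest of all groups, at 785, 779 and 873 cpm, and Tail (35.8 and 31.6 cpm) and Lung (16.3 and 13.9 cpm) exceeded the stem cells derived from them in the Nes-GFP experiment.

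Gap43 fell against brain NSCs in 4 of the 5 pNSC groups: the log2 fold change was -6.40 in Lung-pNSC (SE 0.116), -3.20 in Tail-pNSC (SE 0.0776), -2.49 in Wnt1Cre-mTmG Tail pNSCs (SE 0.0483) and -1.09 in Sox2-GFP lung pNSCs (SE 0.0464). For the DRG pNSCs the difference was -0.14 (SE 0.0446, edgeR adjusted p = 0.015). Lung-pNSC was also lower than Lung (-3.56, SE 0.172) and Tail-pNSC lower than Tail (-1.58, SE 0.0926), while Sox2-GFP lung pNSCs stood above the same Lung samples by 0.88 (SE 0.0733), under the 2-fold limit.

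**Figure D2:**
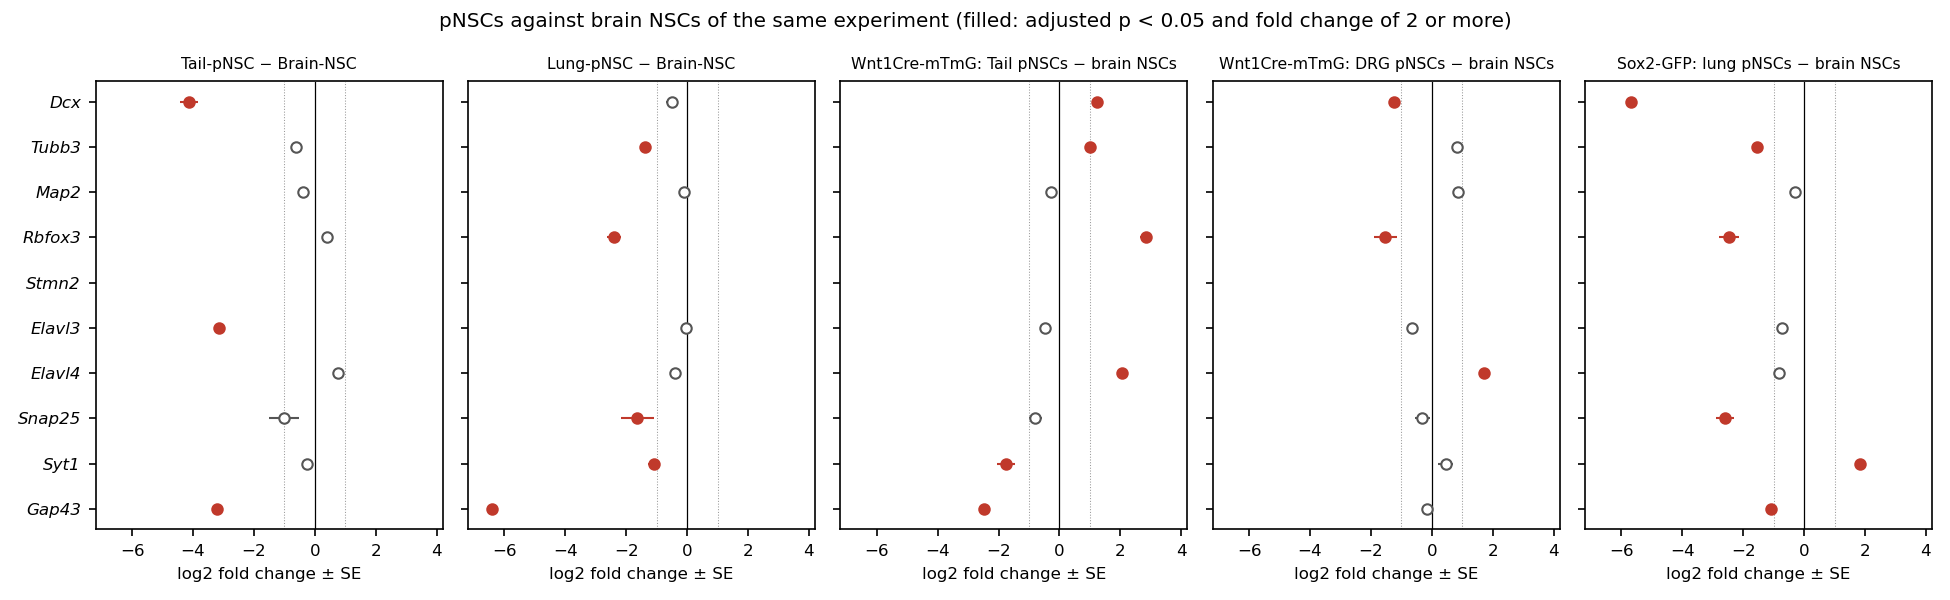
Log2 fold change (with SE) of the pan-neuronal genes in each of the 5 pNSC groups against brain NSCs of the same experiment; filled points are called and dotted lines mark a 2-fold difference. Stmn2 is left out, being at or under 3 counts in at least 1 group of each pair, and Map2 lies between the dotted lines in all 5 panels, while Gap43 lies below 0 in each.

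The Elav-like genes, which encode neuronal RNA-binding proteins that stabilise transcripts and steer splicing, were detected in all 8 neural stem lines. Elavl3 (chr9:22015005-22052023, minus strand) lay at 13.1 to 26.2 cpm in 7 of the lines, and at 1.54 and 1.77 cpm in Tail-pNSC. In Tail it was 0.168 and 0.574 cpm, and in Lung 2 and 1 counts. Its fall in Tail-pNSC against Brain-NSC (14.2 and 15.2 cpm) was -3.14 on the log2 scale (SE 0.186, edgeR adjusted p = 6.4e-62), and no other pNSC group was called for Elavl3. Lung-pNSC, at 13.4 and 15.9 cpm, overlapped Brain-NSC (-0.02, SE 0.122, adjusted p = 0.984). The annotated gene Gm49318, not a row of the table, overlaps Elavl3 exons on the same strand.

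Elavl4 (chr4:110203722-110351909, minus strand) was highest in the tail-derived and DRG-derived lines. It reached 45.8, 48.0 and 45.5 cpm in Wnt1Cre-mTmG Tail pNSCs, 40.5, 36.4 and 35.0 cpm in the DRG pNSCs and 31.9 and 31.6 cpm in Tail-pNSC. The 3 groups of brain NSCs held 10.8 to 19.8 cpm, Lung-pNSC 13.8 and 14.9 cpm, and Sox2-GFP lung pNSCs 8.18, 10.55 and 8.04 cpm. It was near 0 in the source tissues, with 3 counts in each Lung library and 1 in each Tail library. The rise against brain NSCs was called in Wnt1Cre-mTmG Tail pNSCs (2.04, SE 0.108, adjusted p = 2.3e-11) and DRG pNSCs (1.72, SE 0.116, adjusted p = 1.83e-09), and reached 0.78 (SE 0.0943) in Tail-pNSC. In Tail-pNSC, then, the pair differed in sign against Brain-NSC, with Elavl3 lower and Elavl4 higher, the latter under the 2-fold limit. Neither overlapped between the groups. Of the start-site stretches printed above, that of Elavl3 holds CAGCTG and TATAAA and that of Elavl4 none of the letters searched. Windows at other annotated Elavl4 starts do hold CAGCTG, so this contrast depends on the start shown. A link between these letters and the levels was not tested.

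Rbfox3 (chr11:118489762-118911597, minus strand), the splicing factor behind the NeuN antigen, was low throughout, at 10.1 cpm or less in every sample. It was 10.1, 9.66 and 9.01 cpm in Wnt1Cre-mTmG Tail pNSCs, 9.65 and 8.67 cpm in Tail-pNSC, 7.87, 7.75 and 6.88 cpm in DRG NCSCs, and 6.59 and 7.31 cpm in Brain-NSC. The other 5 neural stem lines held 0.192 to 1.989 cpm, and Lung, at 2.12 and 1.68 cpm, was within or above their range. Both tail-derived lines thus lay above the DRG NCSCs, and Brain-NSC overlapped them. Rbfox3 fell against brain NSCs in Lung-pNSC (-2.39, SE 0.231, adjusted p = 9.66e-24), Sox2-GFP lung pNSCs (-2.47, SE 0.336, adjusted p = 5.74e-13) and DRG pNSCs (-1.53, SE 0.388, adjusted p = 0.00378). It rose in Wnt1Cre-mTmG Tail pNSCs (2.83, SE 0.186, adjusted p = 4.26e-10), and in Tail-pNSC the difference was 0.39 (SE 0.161, adjusted p = 0.0302). The Lung-pNSC replicates were uneven, with 40 and 12 counts.

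Snap25 (chr2:136713453-136782428, plus strand), a SNARE protein that fuses vesicles with the membrane, stayed at or below 4.74 cpm in all neural stem lines, against 40.3, 36.2 and 28.4 cpm in DRG NCSCs. Brain NSCs held 3.55 to 4.74 cpm in the Wnt1Cre-mTmG experiment, 2.07 to 2.77 in the Sox2-GFP experiment and 0.925 to 1.17 in Brain-NSC. Lung-derived pNSCs held less, with 0.237 and 0.447 cpm in Lung-pNSC (5 and 8 counts) and 0.266 to 0.526 in Sox2-GFP lung pNSCs (6 to 11 counts). Snap25 fell in Sox2-GFP lung pNSCs (-2.61, SE 0.293, edgeR adjusted p = 2e-18) and in Lung-pNSC (-1.63, SE 0.537, adjusted p = 0.00747). The second call was lost without Lung-pNSC replicate 1 (-1.22, adjusted p = 0.181) or Brain-NSC replicate 1 (-1.46, adjusted p = 0.0902) and with DESeq2 (adjusted p = 0.189). The Tail-pNSC libraries held 16 and 3 counts, and their difference from Brain-NSC was not called (-1.02, SE 0.496, adjusted p = 0.0782), though it was without replicate 1 (-2.73, adjusted p = 0.0044).

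Syt1 (chr10:108497650-109010982, minus strand), the calcium sensor of synaptic vesicles, had no common direction. Sox2-GFP lung pNSCs held 8.09, 7.20 and 7.10 cpm and their brain NSCs 2.19, 1.95 and 2.12 cpm, a rise of 1.84 on the log2 scale (SE 0.15, adjusted p = 6.03e-34). Lung-pNSC held 3.41 and 2.74 cpm and Brain-NSC 6.24 and 6.82 cpm, a difference of -1.08 (SE 0.2, adjusted p = 3.69e-07) that moved to -0.95 without Lung-pNSC replicate 2. Wnt1Cre-mTmG Tail pNSCs were the lowest of the neural stem lines, at 0.787, 0.782 and 0.402 cpm, and fell against brain NSCs (2.14, 2.03 and 2.62 cpm) with a log2 fold change of -1.76 (SE 0.283, adjusted p = 3.39e-05). DRG NCSCs held 20.3 to 23.2 cpm, above every neural stem line.

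The order of the group means differed from gene to gene. The DRG NCSCs ranked first for Tubb3, Stmn2, Elavl3, Snap25, Syt1 and Gap43, seventh for Dcx and ninth for Map2. For Tubb3, Stmn2, Snap25, Syt1 and Gap43 their samples did not overlap those of the next group, whereas for Elavl3 their samples (26.1, 31.5 and 19.99 cpm) overlapped those of Sox2-GFP brain NSCs (22.9 to 26.2 cpm) and Wnt1Cre-mTmG brain NSCs (19.7 to 23.5 cpm). Neighbours in the order often could not be told apart. The Map2 samples of Brain-NSC, Wnt1Cre-mTmG DRG pNSCs and of Sox2-GFP brain NSCs and Tail-pNSC overlapped in pairs, and the Elavl3 samples of Sox2-GFP lung pNSCs, Brain-NSC, Lung-pNSC and both Wnt1Cre-mTmG pNSC groups overlapped in a run of 5 groups. Lung was lowest for Dcx, Tubb3, Map2, Elavl3 and Syt1, and Tail for Elavl4 and Snap25.

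Among the members, likeness of pattern was weak. Pearson's r of the log2 group means had a median of 0.319 over the 45 pairs and 11 groups, with 4 pairs at 0.7 or more and 6 below 0. Over the 8 neural stem lines alone the median was 0.139, with 1 pair at 0.7 or more (Snap25 and Gap43, 0.817) and 20 below 0. The points share libraries and, in places, the same experiment, and r is given only to describe them. Map2 and Stmn2 were the most opposed pair over the 11 groups, at -0.856.

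Comparing each pNSC group with the brain NSCs of its experiment, 3 to 7 of the 10 members were called. In Tail-pNSC 3 were called, all lower (Dcx, Elavl3 and Gap43), against 10.9% of all genes tested. In Lung-pNSC 5 were called, all lower (Tubb3, Rbfox3, Snap25, Syt1 and Gap43), against 8.71%. Sox2-GFP lung pNSCs had 5 lower (Dcx, Tubb3, Rbfox3, Snap25 and Gap43) and 1 higher (Syt1), against 15.7%. Wnt1Cre-mTmG Tail pNSCs had 5 higher (Dcx, Tubb3, Rbfox3, Stmn2 and Elavl4) and 2 lower (Syt1 and Gap43), against 18.2%. Stmn2 was tested there only because the DRG NCSCs carried it past the filter on low counts. Wnt1Cre-mTmG DRG pNSCs had 1 higher (Elavl4) and 2 lower (Dcx and Rbfox3), against 9.53%. The share of members called was above the background in each, and the direction was not shared, the median log2 fold change of the members being -0.504, -0.793, -1.33, 0.369 and 0.154 in this order, where the median of all genes was 0.0 in the first 3, 0.0039 and 0.013. The members were chosen with earlier results of these data known, so the excess over the background is descriptive and no test. The comparisons within an experiment share their brain NSC samples.

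Brain NSCs of different experiments differed in the members too. Wnt1Cre-mTmG brain NSCs against Brain-NSC gave 4 called members (12.5% of all genes), with Snap25 and Gap43 higher and Rbfox3 and Syt1 lower. Sox2-GFP brain NSCs against Brain-NSC gave 5 (19.0% of all genes), with Dcx, Tubb3 and Snap25 higher and Rbfox3 and Syt1 lower. There Tubb3 was at 0.9994, just under the 2-fold limit, without Brain-NSC replicate 1, and Snap25 was not called with the replicate number as a block (0.79, edgeR adjusted p = 0.127). Stmn2 passed the call rule in both comparisons at 0 counts against 1 or 2 a library, and is left out of these 2 counts. Wnt1Cre-mTmG against Sox2-GFP brain NSCs gave 3 (15.5% of all genes), with Gap43 higher by 2.14 (SE 0.0461) and Dcx and Tubb3 lower (-2.01, SE 0.0933, and -1.48, SE 0.0704). The reporter and any other difference between the experiments cannot be told apart here. Between experiments, the 3 brain NSC means ranged from 8.09 to 38.7 cpm for Dcx and from 60.7 to 267 cpm for Gap43. Placed against the range of these 3 means, 4 of the 5 pNSC groups lay below it for Dcx and for Gap43, and 3 for Snap25. The Dcx count includes Lung-pNSC, which was not called against Brain-NSC. For Elavl4 3 groups lay above the range and 1 below it. Rbfox3 had 2 below and 2 above, Syt1 1 below and 1 above, and Tubb3 2 below. Map2 and Elavl3 had 1 below each. The share over all genes is not given, and a range of 3 means is narrow, so these counts only describe the levels.

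**Figure D3:**
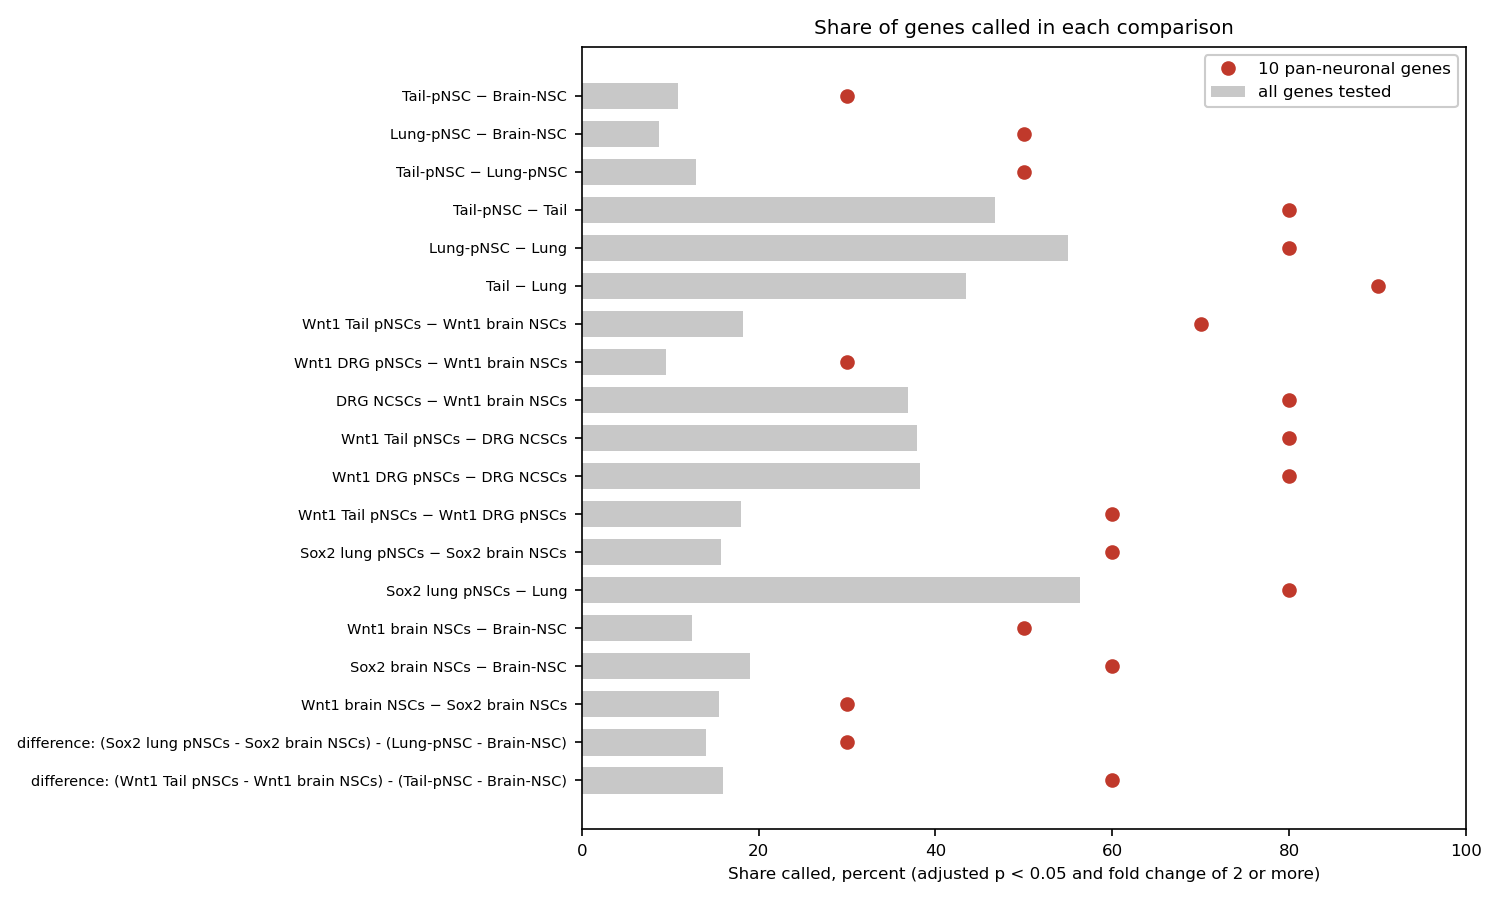
Share of genes called (percent) in each of the 19 comparisons, with bars for all genes tested and points for the 10 pan-neuronal genes. The points lie to the right of the bars throughout, with 3 to 9 of the 10 members called against 8.71 to 56.3% of all genes, also where brain NSC groups were compared. In the comparisons of Wnt1Cre-mTmG and Sox2-GFP brain NSCs with Brain-NSC the points include Stmn2, at 0 to 2 counts a library. Wherever Stmn2 is counted, it passed the filter on low counts only through Lung, Tail or the DRG NCSCs.

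Lung-derived pNSCs were made in 2 experiments, and the effect against brain NSCs could be set side by side. Tubb3, Rbfox3, Snap25 and Gap43 were called lower in both. In a test of the difference between the effects (14.1% of all genes called), 3 members differed: Dcx by -5.18 (SE 0.219, edgeR adjusted p = 2.43e-21), Syt1 by 2.92 (SE 0.229, adjusted p = 1.42e-13) and Gap43 by 5.30 (SE 0.139, adjusted p = 1.11e-27), all as Sox2-GFP minus Nes-GFP. For Tubb3 and Rbfox3 the differences were -0.18 (SE 0.119) and -0.09 (SE 0.383), of which the second was 0.85 without Lung-pNSC replicate 1. Tail-derived pNSCs differed in more members, 6 of 10 against 16.0% of all genes. Dcx, Tubb3, Rbfox3, Elavl3 and Elavl4 had the higher effect in the Wnt1Cre-mTmG experiment, by 5.35 (SE 0.257), 1.61 (SE 0.114), 2.43 (SE 0.277), 2.66 (SE 0.255) and 1.26 (SE 0.149), and Syt1 the lower, by -1.52 (SE 0.316). The lung cells differed in age and the tail cells in selection between the experiments, so that these cannot be told apart from the reporter.

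**Figure D4:**
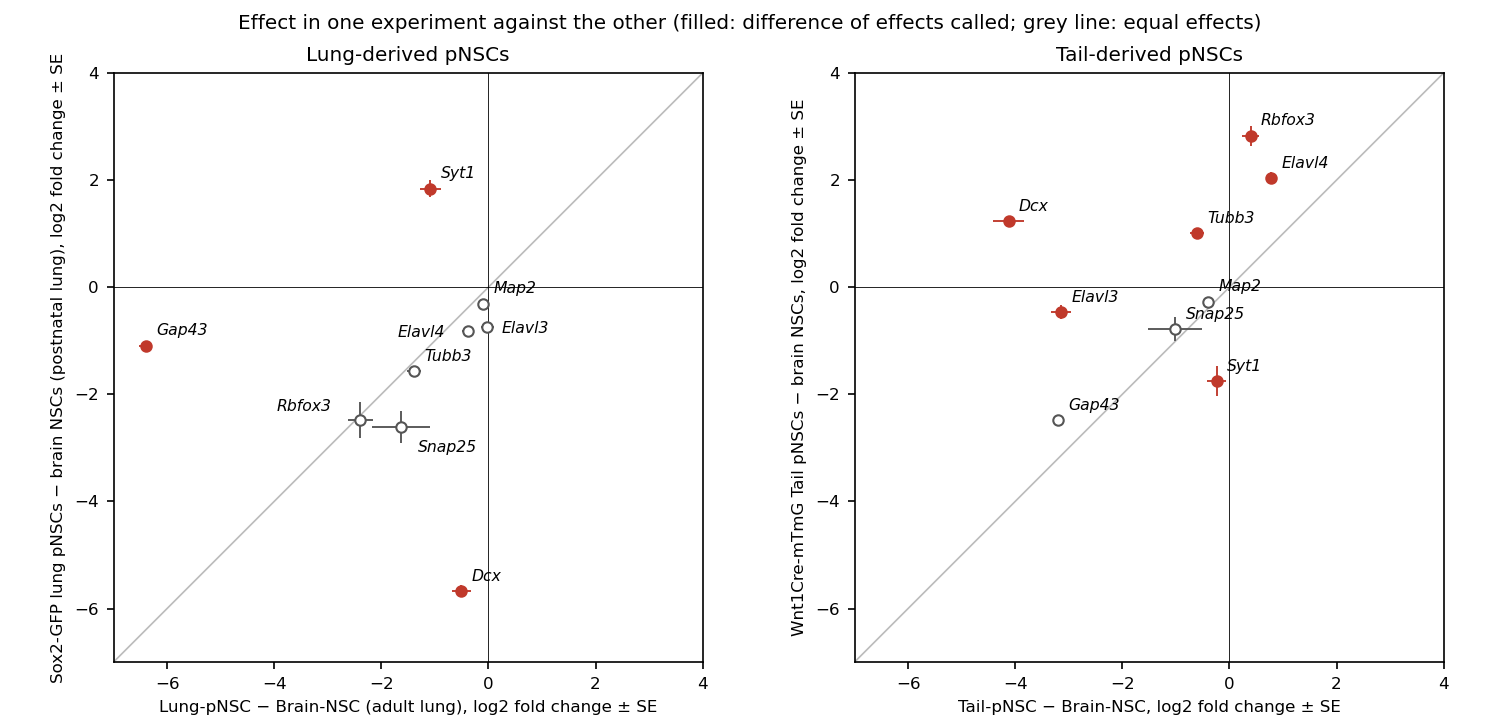
Log2 fold change (with SE) against brain NSCs in the Nes-GFP experiment (horizontal) and in the Sox2-GFP or Wnt1Cre-mTmG experiment (vertical), for lung-derived and tail-derived pNSCs; filled points are members whose effects differ by the call rule. In the lung panel Tubb3, Map2 and Rbfox3 (which 1 Lung-pNSC library moves to a difference of 0.85) lie near the line of equal effects, with Gap43 and Syt1 above it and Dcx below it; in the tail panel 5 filled points lie above the line and Syt1 below it.

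Within an experiment, pNSC groups of different tissues also differed. In the Nes-GFP experiment the lung cells were adult and the tail cells postnatal, so tissue and age cannot be told apart there. Tail-pNSC against Lung-pNSC gave 5 called members (12.9% of all genes), with Rbfox3 higher by 2.79 (SE 0.223), Elavl4 by 1.16 (SE 0.099) and Gap43 by 3.20 (SE 0.18), and Dcx (-3.62, SE 0.317) and Elavl3 (-3.12, SE 0.187) lower. Wnt1Cre-mTmG Tail against DRG pNSCs gave 6 (18.0% of all genes), with Dcx, Rbfox3 and Stmn2 higher and Map2, Syt1 and Gap43 lower. Stmn2 rests there on 11 to 19 counts a library against 2 (ratio 3.60, 95% counting interval 1.52 to 10.3), and it passed the filter only through the DRG NCSCs.

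Against cells of the same tissue, 8 members were called in each of Tail-pNSC against Tail (46.7% of all genes), Lung-pNSC against Lung (55.0%) and Sox2-GFP lung pNSCs against Lung (56.3%). Lung came from adult mice of the Nes-GFP experiment and the Sox2-GFP lung pNSCs from postnatal mice. Age and experiment cannot be told apart from the cell type in that comparison. The Snap25 call in Tail-pNSC against Tail (16 and 3 counts against 1 and 0) was lost without Tail-pNSC replicate 1 (edgeR adjusted p = 0.267). In the first 2 comparisons 6 members were higher in the stem cells, and Stmn2 and Gap43 were lower. Stmn2 is among the members called in each comparison but passed the filter on low counts only through Lung or Tail. Its call there adds no support. Elavl3 and Elavl4 were among those that rose in each: Elavl4 was 531 times as high in Tail-pNSC as in Tail (95% counting interval 147 to 4390) and 82.1 times as high in Lung-pNSC as in Lung (37.5 to 225). In Sox2-GFP lung pNSCs 6 members were higher and Rbfox3 (-2.63, SE 0.368) and Stmn2 were lower. Tail and Lung themselves differed in 9 members (43.4% of all genes), with Tubb3 higher in Tail by 6.24 (SE 0.269) and Stmn2 lower (-1.77, SE 0.098). Tail was postnatal and Lung adult, so tissue and age cannot be told apart. Of these 9, Snap25 and Elavl3 rest on 0 to 9 counts a library, and both calls were lost in alternatives: Snap25 without Tail replicate 2 (edgeR adjusted p = 0.165) or Lung replicate 1 (0.395), and with DESeq2 (0.0706), and Elavl3 without Tail replicate 2 (0.481), Lung replicate 1 (0.0557) or Lung replicate 2 (0.113). Lung cells also carried epithelial markers (a sum of 11300 to 11400 cpm over 6 genes), endothelial markers (3950 to 4030 cpm over 4) and leukocyte markers (4330 to 4340 cpm over 5), and Tail cells fibroblast markers (72300 to 74200 cpm over 7). In such mixtures fewer cells of a type and less RNA per cell cannot be told apart.

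The DRG NCSCs differed from all Wnt1Cre-mTmG lines in 8 members each, against 36.9% of all genes for brain NSCs, 37.9% for Tail pNSCs and 38.3% for DRG pNSCs. Stmn2 is in each of these counts but passed the filter on low counts only through the DRG NCSCs, so its call adds no support. The DRG NCSCs came from adult wild-type mice and the pNSCs from postnatal Wnt1Cre-mTmG mice. Age and genotype thus cannot be told apart from cell type against the pNSCs, nor genotype from cell type against the brain NSCs. Against brain NSCs 6 members were higher, namely Tubb3 by 4.74 (SE 0.0541), Rbfox3 by 2.48 (SE 0.194), Snap25 by 3.06 (SE 0.152), Syt1 by 3.29 (SE 0.156), Gap43 by 1.62 (SE 0.0438) and Stmn2, with a ratio of 2080 (95% counting interval 811 to 7620). Dcx (-2.42, SE 0.117) and Map2 (-2.97, SE 0.0544) were lower. DRG NCSCs replicate 3 stood apart from its partners, and it was the lowest of the 3 for Map2, Rbfox3, Stmn2, Elavl3, Elavl4, Snap25 and Syt1. Without it 9 members were called against brain NSCs, Elavl4 being added at 1.09 (main value 0.95), and 7 against Tail pNSCs, Elavl4 being lost at 0.95 (main value 1.08). Against DRG pNSCs 9 were called without it, Elavl3 being added at -1.07. All 8 sensory neuron markers were at 1 cpm or more in the DRG NCSCs, with a sum of 631 to 668 cpm. Among them were Tubb3 at 300.1 cpm, Prph at 154 cpm, Avil at 84.6 cpm and Scn10a at 20.3 cpm. In the Wnt1Cre-mTmG lines Scn10a was at 0 and Prph at 0.298 to 0.340 cpm. Tubb3, a member, is itself on that list of 8, so the sum and the members are not independent. Leukocyte markers also stood higher, at 587 to 620 cpm in the DRG NCSCs against 2.98 or less in these lines. Fibroblast markers summed to 3010 to 3640 cpm in the DRG NCSCs, against 25.0 to 26.4 in the brain NSCs, 390 to 400 in the Tail pNSCs and 19.7 to 21.3 in the DRG pNSCs. Oligodendrocyte lineage markers summed to 2140 to 2210 cpm, against 169 to 176 in the brain NSCs. The part of these other cell markers in the result was not tested.

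The wider neuronal cytoskeleton, a list of 19 further genes, held 8 called genes in Tail-pNSC against Brain-NSC (2 higher, 6 lower, median log2 fold change -0.354). Mapt, the axonal microtubule protein tau, fell by 2.76 (SE 0.114), and the stathmin relative Stmn4 was at 0 in Tail-pNSC, at least 4.15-fold lower. The list gave 1 higher and 2 lower in Lung-pNSC (median -0.606), where the neurofilament gene Nefl rose by 2.48 (SE 0.563) and Tubb4a fell by 1.47 (SE 0.214). Wnt1Cre-mTmG Tail pNSCs had 2 higher and 9 lower (median -0.638). There Map1b, a microtubule protein of growing axons, rose by 3.28 (SE 0.0712), from 38.8 to 374.9 cpm. The DRG pNSCs had 2 higher and 3 lower (median -0.011), with Stmn4 (-2.63, SE 0.202) and Nefl (-1.35, SE 0.184) among the lower. In Sox2-GFP lung pNSCs 0 rose and 8 of 18 tested fell (median -0.792), led by Tubb4a at -2.11 (SE 0.0759) and Stmn3 at -2.04 (SE 0.0581). In the DRG NCSCs against brain NSCs 10 of the 19 rose and 2 fell, where 36.9% of all genes were called. For the pNSC groups the shares of all genes called were 10.9% in Tail-pNSC, 8.71% in Lung-pNSC and 15.7% in Sox2-GFP lung pNSCs. They were 18.2% in Wnt1Cre-mTmG Tail pNSCs and 9.53% in the DRG pNSCs.

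Of 16 further genes of the synaptic vesicle and release machinery, most were not called in any pNSC group. The counts of higher and lower genes were 0 and 4 in Tail-pNSC, 1 and 1 in Lung-pNSC, 2 and 2 in Wnt1Cre-mTmG Tail pNSCs, 2 and 1 in the DRG pNSCs, and 1 and 3 of 15 tested in Sox2-GFP lung pNSCs. The shares of all genes called were 10.9%, 8.71%, 18.2%, 9.53% and 15.7% in this order. These small counts were not tested against those shares. Cplx1, a complexin that clamps SNARE complexes, fell in Tail-pNSC (-3.05, SE 0.165) and Lung-pNSC (-1.20, SE 0.127), and Cplx2 fell in the DRG pNSCs (-1.83, SE 0.0608). The active zone scaffold Bsn fell in Tail-pNSC (-1.87, SE 0.147) and Sox2-GFP lung pNSCs (-1.80, SE 0.0809). Sv2a, a vesicle glycoprotein, rose by 1.12 (SE 0.0893) in Lung-pNSC. In Wnt1Cre-mTmG Tail pNSCs Sv2b rose (2.14, SE 0.545), as it did in the DRG pNSCs (1.78, SE 0.638), at levels under 1 cpm.

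Of 9 further neuronal RNA-binding and splicing factors, 0 rose and 1 fell in Tail-pNSC, 1 rose and 0 fell in Lung-pNSC, 3 rose and 1 fell in Wnt1Cre-mTmG Tail pNSCs, 0 were called in the DRG pNSCs, and 2 of 8 tested rose in Sox2-GFP lung pNSCs. The shares of all genes called were 10.9%, 8.71%, 18.2%, 9.53% and 15.7% in this order. The counts of 1 in 9 lie near these shares and say nothing about the list. Rbfox1, a relative of Rbfox3, rose in Lung-pNSC by 3.29 (SE 0.536) and in Sox2-GFP lung pNSCs by 1.21 (SE 0.422), where Rbfox3 fell in both. Srrm4, a splicing activator of neuronal microexons, rose in Wnt1Cre-mTmG Tail pNSCs by 3.07 (SE 0.327), from 0.512 to 4.33 cpm, and Celf5 fell there (-1.78, SE 0.128). Celf5 rose in Sox2-GFP lung pNSCs by 1.57 (SE 0.122). In Tail-pNSC Celf4 was the gene that fell (-1.11, SE 0.415).

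The repressors of neuronal genes were present in every group. Rest, which silences neuronal genes through the RE1 element, lay at 30.1 to 60.3 cpm over the 11 group means, and Ptbp1, which represses neuronal splicing, at 99.8 to 409.5 cpm. None of the 9 genes of this list was called in any pNSC group against brain NSCs, where 8.71 to 18.2% of all genes were. The Rest mean was 41.7 cpm in Brain-NSC, 53.8 in Tail-pNSC, 30.1 in Wnt1Cre-mTmG brain NSCs and 58.3 in the DRG NCSCs. Ptbp1 was lowest in Sox2-GFP brain NSCs and highest in Tail. A link between these repressors and the members' levels was not tested.

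Broadly expressed relatives of the members ran at high levels in the neural stem lines. Tubb5 lay at 644.9 to 1714 cpm, Map4 at 318.2 to 590.1 cpm, Elavl1 at 106.6 to 166.3 cpm and Snap23 at 38.3 to 61.3 cpm. No gene of this list of 8 was called in Tail-pNSC, Lung-pNSC or the DRG pNSCs, where 10.9%, 8.71% and 9.53% of all genes were. Tubb5 (-1.04, SE 0.0341) and Tubb6 (-1.61, SE 0.049) fell in Wnt1Cre-mTmG Tail pNSCs, where Tubb3 rose. In Sox2-GFP lung pNSCs Tubb5 rose by 1.12 (SE 0.0172) and Tubb6 by 2.22 (SE 0.0328), where Tubb3 fell. Proliferation genes moved alongside in the second pair: the sum of 6 was 2490 to 2500 cpm in Sox2-GFP lung pNSCs against 1260 to 1270 in their brain NSCs, with 4 called higher, among them Pcna (1.55, SE 0.0257) and Mcm2 (1.496, SE 0.0265). In Wnt1Cre-mTmG Tail pNSCs the sum was 1440 to 1460 cpm against 2190 to 2200, with 0 of 6 called. The shares of all genes called were 15.7% in Sox2-GFP lung pNSCs and 18.2% in Wnt1Cre-mTmG Tail pNSCs. The part of cell division in the members' levels was not tested.

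Neuroblast genes gave 5 higher and 3 lower of 12 tested (18.2% of all genes) in Wnt1Cre-mTmG Tail pNSCs, the group in which Dcx rose. Sp8, a zinc finger factor of interneuron precursors, went from 0.451 to 47.2 cpm (6.69, SE 0.139), and Dlx1, another interneuron factor, was lower with a ratio of 53.5 (95% counting interval 17.7 to 265). Fibroblast markers also stood higher there, with a sum of 390 to 400 cpm against 25.0 to 26.4 in the brain NSCs and 6 of 7 called, led by Col3a1 at 5.52 (SE 0.103) and Col1a1 at 5.17 (SE 0.173). Tail-pNSC, in which Dcx fell, had 3 neuroblast genes higher and 2 lower, Sp8 again among the higher (ratio 74.6, 95% counting interval 12.9 to 2990) and Dlx1 among the lower (-2.61, SE 0.449). In Lung-pNSC 0 were higher and Igfbpl1 was lower (-1.12, SE 0.323). The DRG pNSCs had 0 higher and 4 lower, among them Dlx1 (-3.69, SE 0.494) and Sp8 (at 0, at least 1.61-fold lower). In Sox2-GFP lung pNSCs Neurod1, a neuronal differentiation factor, rose by 3.88 (SE 0.291) to 3.89 cpm and Sox4 fell by 1.13 (SE 0.0193), while Dcx fell. The shares of all genes called were 10.9% in Tail-pNSC, 8.71% in Lung-pNSC, 9.53% in the DRG pNSCs and 15.7% in Sox2-GFP lung pNSCs.

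Markers of other lineages varied between the neural stem lines and are given beside the members. Among sensory neuron and neuroendocrine markers Calca, the calcitonin gene, was at 148 cpm in Lung-pNSC, 17.3 in Tail-pNSC and 0 in Brain-NSC (at least 993-fold and 116-fold higher), and at 16.2 cpm in Sox2-GFP lung pNSCs against 1.69 in their brain NSCs. It was 0.826 to 0.878 cpm in the Wnt1Cre-mTmG pNSCs. Pou4f1, a sensory neuron factor, was also higher in Lung-pNSC than in Brain-NSC (7.04 against 1.29 cpm, log2 fold change 2.44, SE 0.255), and was at 0.692 cpm or less in the other 6 lines. The remaining sensory markers included Scn10a at 0.0279 cpm or less and Prph at 0.340 or less in all 8 lines, Isl1 at 0.0253 or less except in Wnt1Cre-mTmG Tail pNSCs (1.03), and Avil at 0.568 or less except in Brain-NSC (3.45). Gpr17, a marker of committed oligodendrocyte precursors, was at 393 cpm in Sox2-GFP brain NSCs and 1.83 in the lung pNSCs (-7.74, SE 0.0507), and it also fell in Tail-pNSC (-4.87, SE 0.188) and Lung-pNSC (-2.96, SE 0.141). Sox10 was lower in Sox2-GFP lung pNSCs (-5.75, SE 0.239) and in the DRG pNSCs (-4.40, SE 0.323), and Cdh19 in Tail-pNSC (-4.95, SE 0.172) and in Wnt1Cre-mTmG Tail pNSCs (-5.83, SE 0.238). Epithelial markers summed to 0.746 cpm or less, muscle markers to 1.03 or less and leukocyte markers to 3.95 or less in all libraries of the neural stem lines. Whether cells of these other lineages contributed to the members' levels was not tested.

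Genes outside these lists whose group means ran most like those of each member were found by Pearson's r over the 11 groups, among 7228 genes. The closest were Ddx25 (0.992) and Traf4 (0.991) for Map2, and Tfpi2 and Akr1b8 (both 0.997) for Stmn2. Ddx25 lay at 28.4 to 42.1 cpm in the neural stem lines and at 0.194 cpm in Lung. Akr1b8 lay at 0.369 cpm or less in those lines and at 35.9 cpm in the DRG NCSCs, 14.3 in Lung and 6.91 in Tail. For Dcx they were Slc6a9 (0.946) and Trim66 (0.932), for Tubb3 Car11 (0.950) and Ankrd28 (0.938), for Elavl3 Scg3 (0.963) and 4930570G19Rik (0.957), and for Elavl4 Rimkla (0.954) and Epha5 (0.952). Diras1 (0.952) was close to Snap25. The likeness was lower for Gap43, with 1500004A13Rik (0.874) and Ptprn (0.855), and for Syt1, with Galnt17 (0.875) and Rtkn (0.866), and lower still for Rbfox3, with Scrn1 (0.738).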

How the data were processed

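Polyadenylated RNA of 28 samples was sequenced on a NextSeq 500 with single-end reads. Per the study's methods, the authors aligned reads to GRCm38 with HISAT2, annotated them with Cufflinks and ran htseq-count to count the reads of each gene. The deposited table holds these raw counts, without normalization. The strand setting, counting mode and annotation release are not given in the sources used here, so reads of overlapping genes cannot be told apart. No column of another series was present (0 columns).

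Counts were tested as deposited with edgeR 4.0.16 (R 4.3.3): filterByExpr (minimum count 10, minimum total 15), TMM scaling and a 2-sided quasi-likelihood test, with Benjamini-Hochberg adjustment over all genes of a comparison. The fits held 16948 genes (5 groups of the Nes-GFP experiment), 14448 (4 groups of the Wnt1Cre-mTmG experiment with DRG NCSCs), 16234 (3 groups with Sox2-GFP and Lung) and 17393 (all 28 samples, for comparisons between experiments). All 10 members passed each filter. The fits were tested on simulated data before use. A fold against a group at 0 was computed against 3 counts in each of its libraries; at 1 to 3 counts an exact 95% counting interval is given. Exon lengths are unions from GENCODE M21, and start-site windows are from RefSeq; no protein sequence was used. Figures were drawn with Python 3.11.15 and matplotlib 3.10.9.

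The members and the 18 gene lists (151 genes) were chosen with earlier results of these data known. Named from the lists are, in each comparison of pNSCs with brain NSCs, at most 2 genes with the largest change among those called whose samples do not overlap; from all other genes, the 2 most similar to each member in log2(cpm + 1), with a group mean of at least 5 cpm and a range of at least 2; and Rest, Ptbp1, Tubb5, Map4, Elavl1 and Snap23. Prph, Avil, Scn10a, Pou4f1, Isl1, Pax6, Olig2, Vim and Nes are named from marker lists after their values were seen. Some genes that this rule selects are not reported here. The alternatives were DESeq2 1.42.0, upper-quartile scaling, no filter, a mean count of at least 100, only the groups compared, the replicate number as a block, each sample left out, no limit on the fold change, a log2 limit of 2 and an added 10 in place of 1. Same-numbered samples did not deviate together in any of 14 comparisons (r of their deviations -0.016 to 0.052), so the numbers were not taken as pairs.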

Additional observations from a re-analysis of the deposited data

Results flagged for a closer look

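In 9 cases the effect of a pNSC group against brain NSCs differed between 2 experiments by the interaction test of edgeR. For lung-derived pNSCs (Sox2-GFP minus Nes-GFP) the difference was -5.18 for Dcx (adjusted p = 2.43e-21), 2.92 for Syt1 (adjusted p = 1.42e-13) and 5.30 for Gap43 (adjusted p = 1.11e-27) on the log2 scale. For tail-derived pNSCs (Wnt1Cre-mTmG minus Nes-GFP) it was 5.35 for Dcx (adjusted p = 8.64e-20), 1.61 for Tubb3 (adjusted p = 7.87e-15), 2.43 for Rbfox3 (adjusted p = 1.61e-09), 2.66 for Elavl3 (adjusted p = 2.52e-11), 1.26 for Elavl4 (adjusted p = 3.99e-09) and -1.52 for Syt1 (adjusted p = 9.97e-05). Dcx moved in opposite directions in the tail-derived lines, and so did Syt1 in the lung-derived lines. Each side of a difference has its own brain NSCs. Of the genes named, Dcx and Syt1 were also called between the brain NSCs of the lung pair, and Rbfox3 and Syt1 between those of the tail pair.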

How the results depend on the processing

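Of 2026 recomputed member fold changes, 1987 kept their direction and their side of the threshold, 18 lost the call, 8 gained it and 13 changed sign. Every change of sign was in a difference that was not called. Lung-pNSC against Brain-NSC in Elavl3 was 0.0072 with DESeq2 and 0.0002 with only the groups compared, and -0.15 to 0.11 when single samples were left out. Leaving out single samples gave -1.09 to 1.44 for Snap25 in Tail-pNSC against Lung-pNSC, -2.27 to 0.0762 for Dcx in Tail-pNSC against Tail, -0.40 to 1.38 and -0.13 to 1.61 for Snap25 in Lung-pNSC and Sox2-GFP lung pNSCs against Lung, -0.60 to 0.85 for Rbfox3 in the lung difference and -0.62 to 1.92 for Snap25 in the tail difference.

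The counts that follow include Stmn2 wherever it passed the call rule, also between brain NSC groups. The share of all genes called under each other rule is not given. The counts therefore show only how the number of members called depends on the rule. Without a limit on the fold change, the members called rose to 7 in Tail-pNSC against Brain-NSC, 8 in Lung-pNSC against Brain-NSC, 8 in Tail-pNSC against Lung-pNSC, 7 in Wnt1Cre-mTmG DRG pNSCs against brain NSCs, 9, 10 and 6 in Wnt1Cre-mTmG and Sox2-GFP brain NSCs against Brain-NSC and against each other, and 6 in the lung difference. With a log2 limit of 2 they fell to 2 in Lung-pNSC against Brain-NSC, 5 in Tail against Lung, 4 and 0 in Wnt1Cre-mTmG Tail and DRG pNSCs against brain NSCs, 3 in Sox2-GFP lung pNSCs against brain NSCs, 3 and 2 in Wnt1Cre-mTmG and Sox2-GFP brain NSCs against Brain-NSC, and 3 in the tail difference. A mean count of at least 100, which left 6 to 8 members in the comparisons named here, gave 2 in Lung-pNSC against Brain-NSC, 3 in Tail-pNSC against Lung-pNSC, 5 in Tail-pNSC against Tail, 5 in Tail against Lung, 3 in Sox2-GFP lung pNSCs against brain NSCs and 3 in Wnt1Cre-mTmG brain NSCs against Brain-NSC. With 10 added in place of 1, 7 of the 20 partners of like pattern were found again. DESeq2 and upper-quartile scaling gave group levels of 0.96 to 1.1 times the main ones.

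With the replicate number as a block, the counts of members called were 3 to 9 and within 1.5 times those without it, the largest move being from 6 to 4 in Sox2-GFP brain NSCs against Brain-NSC. The block ended 2 calls there, Snap25 (0.79, adjusted p = 0.127) and Stmn2, which is given no fold change. Snap25, Rbfox3, Stmn2 and Dcx rest on fewer than 20 counts in several libraries, which limits the precision of their differences.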
